A study of Homo sapiens with 2 samples.

Results

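The cells described here are the non-cycling cells of 2 single-cell RNA libraries that carried much of the nuclear RNA MALAT1. A cell barcode was a member when it had at least 1000 detected genes, at most 10% of its UMIs (unique molecular identifiers, 1 per captured RNA molecule) from mitochondrially encoded genes, fewer than 60 UPM of TOP2A and MKI67 together, and at least 15000 UPM of MALAT1. UPM stands for UMIs of a gene per 1000000 UMIs, here of the cell, and further on of cells summed over a class. The rule was met by 844 of 5401 barcodes, 363 in the library labelled 4B4 and 481 in the control library. They are called MALAT1-rich cells here. They were set beside 991 MALAT1-low cells, 456 in the 4B4 library and 535 in the control library, which met the same bounds with MALAT1 under 6000 UPM.

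Both libraries came from HT1080, a human fibrosarcoma cell line, labelled wild type. Spheroids of 2000 cells were set in collagen, about 50 spheroids in 500 µl per sample, and left to invade for 72 h. The 4B4 spheroids were kept with 2 µg/ml of 4B4, an antibody that blocks β1 integrin, and the control spheroids without it. Cells were freed with collagenase and then trypsin, and 3′ libraries were made with the 10x Genomics version 3 chemistry. Each group is 1 library from pooled spheroids, so library and treatment cannot be told apart, and no test, p-value or standard error is given. The rule used MALAT1 itself, so the contrast of MALAT1-rich with MALAT1-low cells is a description, and its intervals cover counting error only.

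MALAT1 is an abundant long noncoding RNA that stays in the nucleus at nuclear speckles, bodies that store splicing factors. NEAT1, the product of its neighbour gene, is the scaffold of paraspeckles, another kind of nuclear body. Unspliced transcripts are nuclear as well, and most of their length is intron. Messenger RNAs of ribosomal proteins, glycolytic enzymes and respiratory chain subunits are short, stable and mostly cytoplasmic.

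MALAT1 and NEAT1 lie on the forward strand of chromosome 11 in GRCh38, MALAT1 at chr11:65497688-65506516 and NEAT1 at chr11:65422774-65445540. Their 3′ ends are shown because 3′ libraries capture RNA through runs of A. MALAT1 and the long NEAT1 transcript shown here (22743 bases) are known to end in a run of A that the genome itself encodes. That run is folded back onto a U-rich stretch, in place of an ordinary poly(A) tail. The statement does not cover shorter NEAT1 transcripts, which the gene count does not tell apart. Each sequence gives 90 bases of the unspliced GENCODE release 29 transcript, 5′ to 3′, ending in the last AAAAGCAAAA of that transcript, which is in capitals. The MALAT1 bases are chr11:65506027-65506116 and the NEAT1 bases chr11:65445451-65445540. The annotated NEAT1 transcript ends there, and that of MALAT1 goes on for another 353 bases.
MALAT1: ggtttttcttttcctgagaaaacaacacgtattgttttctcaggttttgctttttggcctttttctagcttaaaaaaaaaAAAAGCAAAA
NEAT1: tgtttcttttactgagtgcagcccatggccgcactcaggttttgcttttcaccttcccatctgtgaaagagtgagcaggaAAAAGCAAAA
The same 10 letters occur on the transcribed strand of 2493 of 206694 annotated transcripts (1.21%), and 11 transcripts end in them, so the match is a description and marks no site of capture.

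Members held a median of 29467 UPM of MALAT1 in the 4B4 library and 26312 in the control library. In MALAT1-low cells the medians were 450 UPM in the 4B4 library and 883 in the control library. In whole molecules that was a median of 1737 MALAT1 UMIs per MALAT1-rich cell and 33 per MALAT1-low cell in the 4B4 library, and 776 per MALAT1-rich cell and 28 per MALAT1-low cell in the control library. The histograms of the log10 MALAT1 level had an upper and a lower mode with a dip between them. The step of the dip with the fewest cells ran from 3.5 to 3.6 in the 4B4 library (10 cells). In the control library it ran from 2.9 to 3.0 (19 cells). Both steps lie within the MALAT1-low class. The bounds lie higher, on the rise to the upper mode, with 128 cells of the 4B4 library and 269 of the control library between them. Members form the upper end of a range, cut at a bound on that rise and not at the dip.

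**Figure D1:**
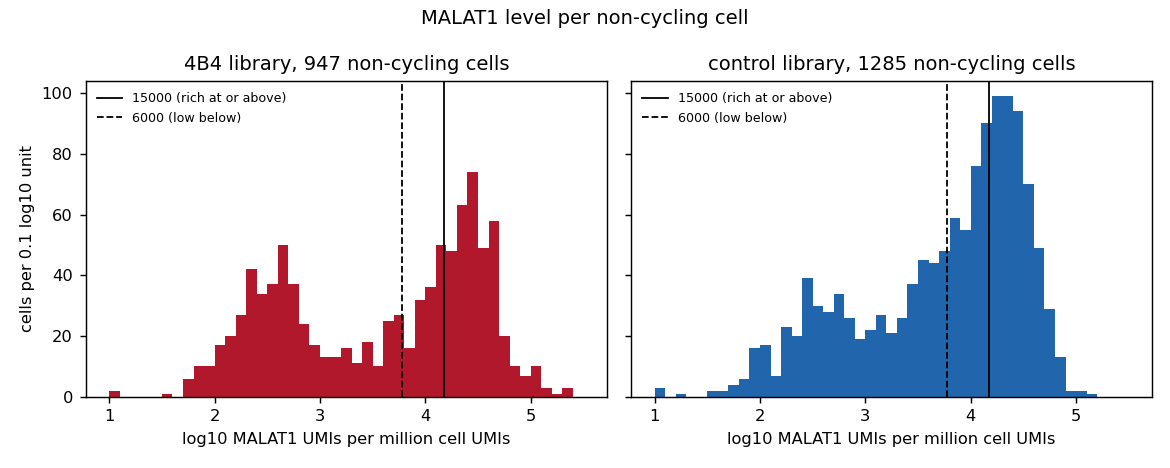
Cells per 0.1 log10 unit of MALAT1 level (UPM), for 947 non-cycling cells of the 4B4 library (left) and 1285 of the control library (right); the solid line is the lower bound of MALAT1-rich cells (15000) and the dashed line the upper bound of MALAT1-low cells (6000). Both libraries have a mode above 15000 and one below 1000, and the space between them holds more cells in the control library.

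MALAT1-rich cells made up about the same part of the non-cycling cells in both libraries. Their share was 38.3% in the 4B4 library (95% Clopper-Pearson interval 35.2 to 41.5, 947 cells) and 37.4% in the control library (34.8 to 40.1, 1285 cells), a gap within the counting error. The cells between the bounds were 13.5% in the 4B4 library (11.4 to 15.9) and 20.9% in the control library (18.7 to 23.3), and MALAT1-low cells were 48.2% in the 4B4 library (44.9 to 51.4) and 41.6% in the control library (38.9 to 44.4). Among the cycling cells, which the rule leaves out, 22.5% of 138 passed the same MALAT1 bound in the 4B4 library (15.8 to 30.3) and 12.7% of 828 in the control library (10.5 to 15.1). The share of cells at the upper bound was thus lower among cycling cells than among non-cycling cells in each library.

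MALAT1-rich cells were somewhat shallower than MALAT1-low cells, yet showed more genes. Their median was 63941 UMIs in the 4B4 library and 29686 in the control library, beside 73422 in the 4B4 library and 32766 in the control library for MALAT1-low cells. Their median of detected genes was 8776 in the 4B4 library and 6383 in the control library, beside 7756.5 in the 4B4 library and 5639 in the control library for MALAT1-low cells. With every cell thinned to 16000 UMIs, the median was 4861 genes in MALAT1-rich cells, 4560 in cells between the bounds and 3944 in MALAT1-low cells of the 4B4 library. The matching control medians were 4731, 4540.5 and 3981 genes, so the order of the 3 classes was the same in both libraries. The mitochondrial share, which the rule caps, had a median of 7.32% in MALAT1-rich and 6.17% in MALAT1-low cells of the 4B4 library, and 8.46% in MALAT1-rich and 7.76% in MALAT1-low cells of the control library.

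The extreme members differed between the libraries in depth. At 50000 UPM of MALAT1 or more there were 55 cells in the 4B4 library, with a median of 12649 UMIs, and 48 in the control library, with a median of 26282. Of all MALAT1-rich cells, 30 in the 4B4 library and 10 in the control library had under 10000 UMIs. The highest MALAT1 level was 246731 UPM, in the 4B4 library. The 2 libraries shared 2 barcodes, none of them MALAT1-rich in both.

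The cells were checked against marker lists. All 4 markers given for the class were high in MALAT1-rich cells of both libraries, as shown next. The rule used MALAT1 and the others were given with the class, so this is no separate check. Of 14 markers of other cell types (immune, erythroid, endothelial, epithelial and liver), 9 were under 1 UPM in MALAT1-rich cells of each library, and MS4A1, KRT5 and KRT14 had no UMI in them. Summed, the 14 markers came to 97.1 UPM in MALAT1-rich and 88.7 UPM in MALAT1-low cells of the 4B4 library, and 82.2 UPM in MALAT1-rich and 59.5 UPM in MALAT1-low cells of the control library, nearly all of it PECAM1 and CD68, which moved in opposite directions. PECAM1, an adhesion molecule of endothelial cells, had 64.2 UPM in MALAT1-rich and 33.5 UPM in MALAT1-low cells of the 4B4 library, and 50.7 UPM in MALAT1-rich and 16.5 UPM in MALAT1-low cells of the control library. CD68, a lysosomal protein of macrophages, had 25.6 UPM in MALAT1-rich and 51.9 UPM in MALAT1-low cells of the 4B4 library, and 22.7 UPM in MALAT1-rich and 39.8 UPM in MALAT1-low cells of the control library. VWF, another endothelial marker, was at 2.24 UPM in 4B4 and 2.00 UPM in control MALAT1-rich cells. Summed levels of 8 markers of dividing cells were 67.7 UPM in MALAT1-rich and 101 UPM in MALAT1-low cells of the 4B4 library, and 111 UPM in MALAT1-rich and 241 UPM in MALAT1-low cells of the control library. Of the 8, 5 were lower and 3 higher in MALAT1-rich cells of the 4B4 library, and all 8 lower in those of the control library. TOP2A and MKI67, which the rule caps, are among the 8, and PCNA and TYMS make up most of the sum. The summed division markers were thus lower in MALAT1-rich cells, and their part in the results below was not tested, apart from the values given without any TOP2A or MKI67 UMI.

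MALAT1 had 31082 UPM in MALAT1-rich cells and 1271 UPM in MALAT1-low cells of the 4B4 library, and 29109 UPM in MALAT1-rich and 1777 UPM in MALAT1-low cells of the control library. This is the quantity the rule used. LRRTM4, which encodes a leucine-rich repeat membrane protein of synapses, lies on the reverse strand at chr2:76747719-77593319. It had 99.9 UPM in MALAT1-rich and 6.91 UPM in MALAT1-low cells of the 4B4 library, a log2 ratio of 3.85 (counting interval 3.68 to 4.03). In the control library it had 62.0 UPM in MALAT1-rich and 6.22 UPM in MALAT1-low cells, a log2 ratio of 3.32 (3.05 to 3.6). LINC01239, a long intergenic noncoding RNA at chr9:22646200-22824213, had 157 UPM in MALAT1-rich and 10.7 UPM in MALAT1-low cells of the 4B4 library, and 118 UPM in MALAT1-rich and 12.6 UPM in MALAT1-low cells of the control library. Its log2 ratio was 3.88 in the 4B4 library and 3.22 in the control library, so both genes stood far higher in MALAT1-rich cells of each library.

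SGO1-AS1, annotated as a processed transcript at chr3:20174244-21145967, had 62.1 UPM in MALAT1-rich and 5.09 UPM in MALAT1-low cells of the 4B4 library, and 92.1 UPM in MALAT1-rich and 10.4 UPM in MALAT1-low cells of the control library. Whether reads were counted by strand is not given in the sources used here. Whether reads of SGO1-AS1 were kept apart from those of SGO1, a protector of sister chromatids on the other strand, is thus not known. SGO1 itself was counted at 0.658 UPM in MALAT1-rich and 1.26 UPM in MALAT1-low cells of the 4B4 library, and at 0.626 UPM in MALAT1-rich and 2.16 UPM in MALAT1-low cells of the control library. The counts given to SGO1 thus lay on the other side of the ratio from those given to SGO1-AS1.

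NEAT1 had 2797 UPM in MALAT1-rich and 397 UPM in MALAT1-low cells of the 4B4 library, a log2 ratio of 2.82 (2.79 to 2.84). In the control library NEAT1 had 2273 UPM in MALAT1-rich and 546 UPM in MALAT1-low cells, a log2 ratio of 2.06 (2.03 to 2.09). KCNQ1OT1, the antisense RNA of an imprinted domain, had 22.2 UPM in MALAT1-rich and 1.95 UPM in MALAT1-low cells of the 4B4 library, and 26.3 UPM in MALAT1-rich and 4.36 UPM in MALAT1-low cells of the control library. Its strand partner KCNQ1 was under 0.5 UPM in all 4 sums. The noncoding RNAs named above were thus all higher in the cells chosen by MALAT1.

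These RNAs were also found in more of the cells. At an equal 16000 UMIs per cell, LINC01239 was seen in 71.6% of MALAT1-rich and 12.9% of MALAT1-low cells of the 4B4 library, and in 63.4% of MALAT1-rich and 17.2% of MALAT1-low cells of the control library. LRRTM4 was seen in 44.4% of MALAT1-rich and 9.05% of MALAT1-low cells of the 4B4 library, and in 38.6% of MALAT1-rich and 7.04% of MALAT1-low cells of the control library. SGO1-AS1 was seen in 36.9% of MALAT1-rich and 4.07% of MALAT1-low cells of the 4B4 library, and in 38.4% of MALAT1-rich and 9.73% of MALAT1-low cells of the control library. Before thinning, LRRTM4 was seen in 65.6% of MALAT1-rich and 25.9% of MALAT1-low cells of the 4B4 library, at median depths of 63941 UMIs in MALAT1-rich and 73422 UMIs in MALAT1-low cells, and in 50.1% of MALAT1-rich and 14.6% of MALAT1-low cells of the control library, at 29686 UMIs in MALAT1-rich and 32766 UMIs in MALAT1-low cells. The level in MALAT1-low cells serves as the background here, since free RNA in the droplets adds UMIs to every barcode. These 3 genes were given as markers of the class, so their shares are a description and no support for it.

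The levels differed along the MALAT1 range. In the 4B4 library LINC01239 had 3.53 UPM in cells under 500 UPM of MALAT1, 26.3 UPM from 2000 to 6000, 77.5 UPM from 10000 to 15000, 139 UPM from 20000 to 30000 and 222 UPM at 50000 or more. In the control library the same steps had 3.40, 24.9, 64.8, 91.0 and 219 UPM. NEAT1 had 189 UPM in the lowest and 4212 UPM in the highest step of the 4B4 library, and 182 and 3590 UPM in the control library. GAPDH, a glycolytic enzyme, ran the other way, with 6923 UPM in the lowest and 1831 UPM in the highest step of the 4B4 library, and 6301 and 2455 UPM in the control library.

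**Figure D2:**
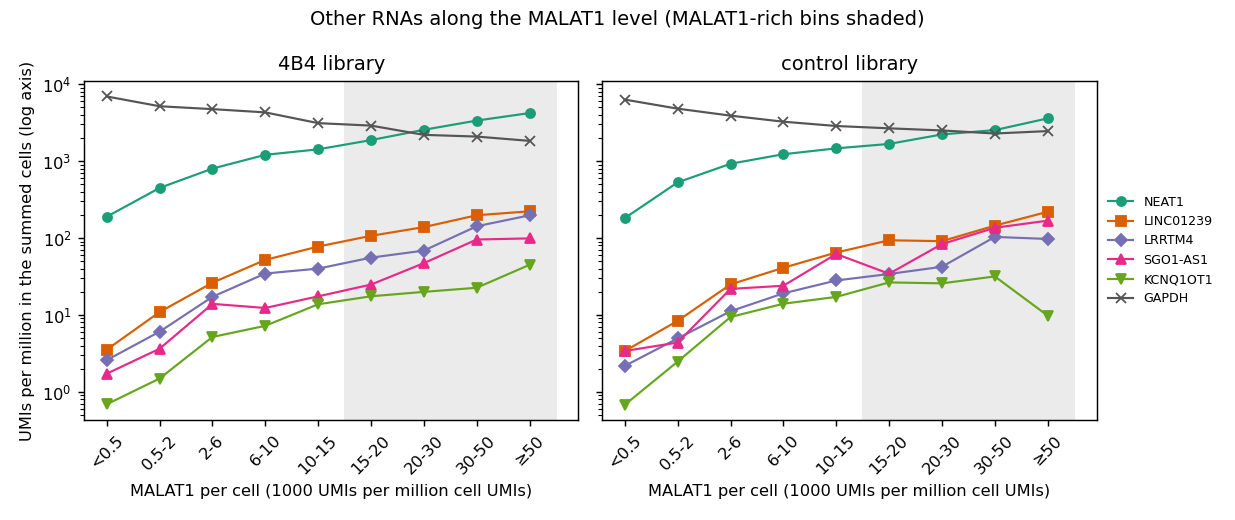
Level of 6 RNAs in UPM (log axis) in non-cycling cells summed by their MALAT1 level in 9 steps, for the 4B4 library (left) and the control library (right); steps of MALAT1-rich cells are shaded. NEAT1, LINC01239, LRRTM4 and SGO1-AS1 are higher in the highest than in the lowest step of both libraries, GAPDH is lower, and KCNQ1OT1 drops to 9.80 UPM in the last control step of 48 cells.

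Just inside the bound, from 15000 to 16000 UPM of MALAT1, 18 cells of the 4B4 library and 28 of the control library had 58.8 UPM (4B4) and 30.3 UPM (control) of LRRTM4. Just outside, from 14000 to 15000, 16 cells of the 4B4 library and 25 of the control library had 42.4 UPM (4B4) and 33.6 UPM (control). NEAT1 had 1555 UPM inside and 1621 UPM outside in the 4B4 library, and 1516 UPM inside and 1573 UPM outside in the control library. LINC01239 had 84.1 UPM inside and 94.0 UPM outside in the 4B4 library, and 80.3 UPM inside and 81.8 UPM outside in the control library. SGO1-AS1 had 10.1 UPM inside and 5.31 UPM outside in the 4B4 library, and 31.3 UPM inside and 54.5 UPM outside in the control library. In these few cells LRRTM4 and SGO1-AS1 were thus higher just inside the bound in the 4B4 library and lower in the control library.

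Across cells thinned to 16000 UMIs, the summed UMIs of genes of 300 kb or more followed MALAT1 with a Spearman correlation of 0.90 over 901 non-cycling cells of the 4B4 library and 0.81 over 1196 of the control library. Among MALAT1-rich cells alone the correlation was 0.34 over 331 cells of the 4B4 library and 0.27 over 453 of the control library. Protein-coding genes under 10 kb went the other way, at -0.84 over all non-cycling cells of the 4B4 library and -0.81 in the control library. The cells of a library share its depth and free RNA, MALAT1 takes up part of each cell's fixed total, and no p-value is given. The relation was much weaker within the members, whose range of MALAT1 the rule itself narrows, than over the full range. Such a cut lowers a correlation, so no conclusion is drawn from the drop.

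Most genes that differed were higher in MALAT1-rich cells when levels were scaled to each sum's total. At 20 UPM or more in either sum, 2595 of 7386 genes (35.1%) stood 2-fold or more higher in MALAT1-rich than in MALAT1-low cells of the 4B4 library, and 112 (1.52%) 2-fold or more lower. The control library had 1934 of 7120 (27.2%) on the higher side by that rule and 46 (0.646%) on the lower side. In both libraries together, 1861 of 6965 genes (26.7%) were past 2-fold higher and 22 (0.316%) past 2-fold lower. The sums were 25842721 UMIs for MALAT1-rich and 44563591 for MALAT1-low cells of the 4B4 library, and 15964309 for MALAT1-rich and 19943501 for MALAT1-low cells of the control library. The ratios of the libraries ranked genes alike, with a rank correlation of 0.97 over 6965 genes. The genes are not independent replicates, and 94.9% of them had the same sign in both. A gene could reach the floor in one sum only, and one that did so in MALAT1-rich cells had to be higher there. That was so for 2186 of the 7386 genes of the 4B4 library and 1731 of the 7120 of the control library. Among genes at 20 UPM or more in both sums, 30.02% stood 1.5-fold or more higher in MALAT1-rich cells of the 4B4 library and 19.5% that far lower, and the control library had 28.1% higher and 10.1% lower. Over all tested genes the 1.5-fold shares were 47.2% higher and 15.5% lower in the 4B4 library, and 41.6% higher and 8.67% lower in the control library.

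This count depends on the scaling. The median log2 ratio of all tested genes was 0.49 in the 4B4 library and 0.33 in the control library. TMM, a scaling that assumes that most genes do not differ, lowered every log2 ratio by 0.77 in the 4B4 library and by 0.52 in the control library. Of the genes past 2-fold, 95.9% in the 4B4 library and 97.7% in the control library were higher in MALAT1-rich cells by total UMIs, against 31.2% in the 4B4 library and 41.6% in the control library under TMM. List medians are therefore given below relative to the median of all tested genes. TMM also changes which genes reach the floor, and these relative medians then moved by at most 0.19 in the 4B4 library and 0.21 in the control library over 34 lists. That changed the side of the hypoxia list in the 4B4 library, and of the immediate early, p53 and apoptosis lists in the control library.

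The longest genes stood highest. Among protein-coding genes, the median log2 ratio of MALAT1-rich over MALAT1-low cells was -0.67 in the 4B4 library and -0.48 in the control library for annotated spans under 5 kb. It was -0.30 in each library from 10 to 20 kb, and 0.31 in the 4B4 library and 0.15 in the control library from 20 to 50 kb. From 50 to 100 kb it was 0.99 in the 4B4 library and 0.75 in the control library, and from 100 to 300 kb 1.56 in the 4B4 library and 1.22 in the control library. At 300 kb or more it was 2.40 in the 4B4 library, where 364 of 383 genes were at least 2-fold higher, and 1.69 in the control library, where 337 of 379 were. Of these, 234 in the 4B4 library and 167 in the control library reached the floor in MALAT1-rich cells only, so the counts and medians of long genes are a description. Of those at the floor in both sums, 131 of 148 in the 4B4 library and 178 of 212 in the control library were at least 2-fold higher. Under the floor in both sums, with 3 UMIs or more, 356 of 378 in the 4B4 library and 337 of 374 in the control library were above 0. Over all tested genes 35.1% (4B4 library) and 27.2% (control library) were at least 2-fold higher. At the floor in both sums, 896 of 4866 of all genes (4B4 library) and 802 of 5130 (control library) were. Under it, 12491 of 16599 of all genes (4B4 library) and 11243 of 15538 (control library) were above 0. The bins up to 20 kb were below and those from 50 kb above the median of all genes. Under TMM the bin from 20 to 50 kb turns negative in both libraries.

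**Figure D3:**
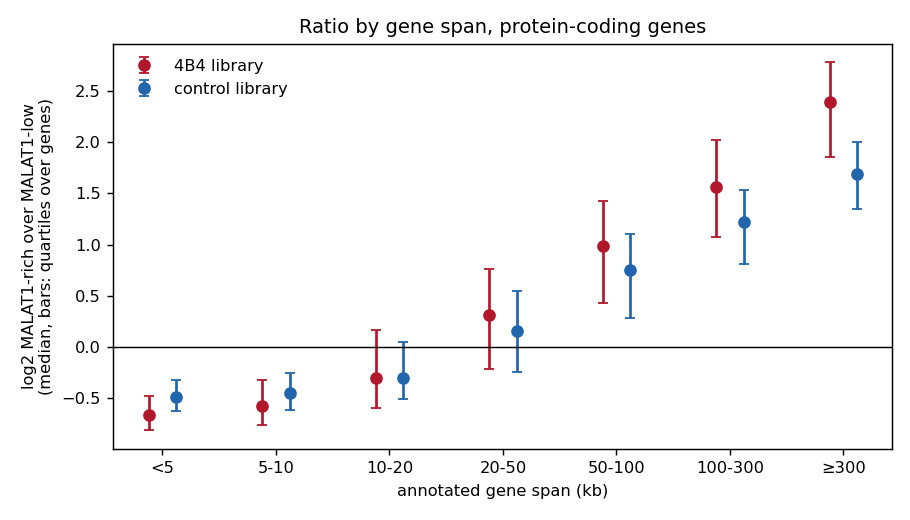
Median log2 ratio of MALAT1-rich over MALAT1-low cells for protein-coding genes in 7 bins of annotated gene span (kb), 4B4 library left of control library in each bin; bars are the quartiles over genes, not an error between samples. The median climbs with span in both libraries, to 2.40 (4B4) and 1.69 (control) at 300 kb or more.

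Across protein-coding genes the log2 ratio followed span with a Spearman correlation of 0.79 over 7018 genes of the 4B4 library and 0.78 over 6762 of the control library. With the number of annotated exons it was 0.55 in the 4B4 library and 0.52 in the control library. Among these genes, the median span in the 4B4 library was 124 kb for those 2-fold or more higher and 5.58 kb for those 2-fold or more lower, and in the control library 147 kb for those higher and 9.16 kb for those lower. Over all tested it was 41.0 kb in the 4B4 library and 40.8 kb in the control library. Long intergenic noncoding RNAs had a median log2 ratio of 2.12 over 168 genes of the 4B4 library and 1.62 over 157 of the control library. Spans come from GENCODE release 29 on GRCh38, and whether reads in introns were counted is not given in the sources used here. Spliced and unspliced RNA of a gene cannot be told apart in these counts.

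Rankings left out mitochondrial and ribosomal protein genes, genes with only a clone name or Ensembl ID, and MALAT1, TOP2A, MKI67, XIST and TSIX. Among the genes ranked, the 12 highest by the smaller of both libraries' ratios were mostly noncoding. All but MIR548XHG reached the floor of 20 UPM in MALAT1-rich cells only, in both libraries. They had to be higher there to be tested, so their ratios are a description. LINC02208, an intergenic noncoding RNA of 94.0 kb, had 31.2 UPM in MALAT1-rich and 2.11 UPM in MALAT1-low cells of the 4B4 library, and 22.3 UPM in MALAT1-rich and 1.70 UPM in MALAT1-low cells of the control library. LINC02163, of 25.5 kb, had 165 UPM in MALAT1-rich and 12 UPM in MALAT1-low cells of the 4B4 library, and 138 UPM in MALAT1-rich and 11.9 UPM in MALAT1-low cells of the control library. ROBO2, a receptor for axon guidance cues, spans 1743 kb and had 75.9 UPM in MALAT1-rich and 6.44 UPM in MALAT1-low cells of the 4B4 library, and 72.2 UPM in MALAT1-rich and 8.62 UPM in MALAT1-low cells of the control library. The others were LRRTM4, LINC01239, SGO1-AS1, MIR4300HG, SPANXA2-OT1, CCDC146, MIR548XHG, LINC01473 and TMEM232, with log2 ratios from 3.15 to 3.88 in the 4B4 library and from 2.85 to 3.32 in the control library. SPANXA2-OT1 overlaps a family of near-identical X-linked genes, so its count is uncertain.

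Very long genes chosen by name were all higher. Of the 27 tested in the 4B4 library and 26 in the control library, all were at least 1.5-fold higher in MALAT1-rich cells. Over all tested genes 47.2% (4B4 library) and 41.6% (control library) were. Of the 39 on the list, 20 in the 4B4 library and 12 in the control library reached the floor in MALAT1-rich cells only. The 12 under it in the 4B4 library and 13 in the control library were all above 0. Of all genes under the floor, 12491 of 16599 (4B4 library) and 11243 of 15538 (control library) were above 0. The list medians stood 2.29 log2 units (4B4 library) and 1.69 (control library) above the median of all genes. LSAMP, a neural cell adhesion protein gene, had 183 UPM in MALAT1-rich and 16.1 UPM in MALAT1-low cells of the 4B4 library, and 98.0 UPM in MALAT1-rich and 14.6 UPM in MALAT1-low cells of the control library. GPC5, a cell surface heparan sulfate proteoglycan gene, had 138 UPM in MALAT1-rich and 11.9 UPM in MALAT1-low cells of the 4B4 library, and 110 UPM in MALAT1-rich and 16.8 UPM in MALAT1-low cells of the control library.

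At least 1.5-fold higher were 14 of 18 nuclear long noncoding RNAs tested in the 4B4 library and 14 of 17 in the control library. The shares of all tested genes were 47.2% higher and 15.5% lower (4B4 library), and 41.6% higher and 8.67% lower (control library). Of these noncoding RNAs, 8 in the 4B4 library and 7 in the control library reached the floor in MALAT1-rich cells only. LINC01433 was the one lower in the control library, at 18.1 UPM in MALAT1-rich and 29.8 UPM in MALAT1-low cells. Whether its reads were kept apart from those of the other strand is not known here. Of 9 long noncoding RNAs known as cytoplasmic, 1 was higher and 2 were lower in each library. NORAD, which sequesters Pumilio proteins, had 91.2 UPM in MALAT1-rich and 49.8 UPM in MALAT1-low cells of the 4B4 library, and 90.7 UPM in MALAT1-rich and 43.4 UPM in MALAT1-low cells of the control library. SNHG29, a snoRNA host gene, had 623 UPM in MALAT1-rich and 1145 UPM in MALAT1-low cells of the 4B4 library, and 771 UPM in MALAT1-rich and 1172 UPM in MALAT1-low cells of the control library. The medians of the cytoplasmic list lay 0.81 (4B4 library) and 0.56 (control library) below that of all genes.

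Chromatin regulators were among the highest groups, with 24 of 25 higher in the 4B4 library and 23 of 25 in the control library. None was lower. Over all tested genes, 47.2% in the 4B4 library and 41.6% in the control library were 1.5-fold or more higher. The floor was reached in MALAT1-rich cells only by 8 of them in the 4B4 library and 7 in the control library. Of the rest, 16 of 17 in the 4B4 library and 16 of 18 in the control library were higher. Among all genes at the floor in both sums, 30.02% (4B4 library) and 28.1% (control library) were. The medians of the chromatin list stood 1.22 (4B4 library) and 1.07 (control library) above that of all genes. After subtracting from each gene the median of protein-coding genes of like span, they were 0.25 (4B4 library) and 0.27 (control library). Then 17 of 25 were above 0 in the 4B4 library and 22 of 25 in the control library. TET2, which oxidises methylcytosine, had 41.0 UPM in MALAT1-rich and 6.66 UPM in MALAT1-low cells of the 4B4 library, and 42.1 UPM in MALAT1-rich and 6.77 UPM in MALAT1-low cells of the control library. ARID2, a subunit of a chromatin remodeller, had 66.9 UPM in MALAT1-rich and 11.4 UPM in MALAT1-low cells of the 4B4 library, and 65.9 UPM in MALAT1-rich and 15.7 UPM in MALAT1-low cells of the control library. Genes of the nuclear envelope and pores had 8 of 11 higher in the 4B4 library and 7 of 12 in the control library. Of those tested, 5 in the 4B4 library and 3 in the control library reached the floor in MALAT1-rich cells only. Of the rest, 3 of 6 in the 4B4 library and 5 of 9 in the control library were higher. Against protein-coding genes of like span the list medians were -0.04 in the 4B4 library and -0.23 in the control library. SYNE1, a linker of nucleus and cytoskeleton, was higher, with log2 ratios of 2.59 (4B4 library) and 1.5 (control library). BANF1, a small chromatin-binding protein gene, was the one lower in each library.

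Splicing factors and speckle proteins had 20 of 31 higher in the 4B4 library and 15 of 31 in the control library, and none lower. The count of the control library is near the share over all tested genes. Their medians stood 0.34 (4B4 library) and 0.25 (control library) above that of all genes. TRA2A, a splicing regulator, had 61.1 UPM in MALAT1-rich and 11.9 UPM in MALAT1-low cells of the 4B4 library, and 54.7 UPM in MALAT1-rich and 16.8 UPM in MALAT1-low cells of the control library. CCNL1, a cyclin of speckles, had 53.6 UPM in MALAT1-rich and 14.1 UPM in MALAT1-low cells of the 4B4 library, and 62.5 UPM in MALAT1-rich and 20.6 UPM in MALAT1-low cells of the control library. After subtracting from each gene the median of protein-coding genes of like span, 29 of 31 were above 0 in the 4B4 library and 27 of 31 in the control library, with medians of 0.58 in the 4B4 library and 0.54 in the control library.

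Genes of the cytoplasmic machinery stood low relative to all genes. Of 77 cytosolic ribosomal protein genes, 46 stood 1.5-fold or more lower in MALAT1-rich cells of the 4B4 library, where 15.5% of all tested genes were, and 11 in the control library, where 8.67% were. Their medians lay 1.11 (4B4 library) and 0.80 (control library) below that of all genes. Against protein-coding genes of like span the medians were -0.06 in the 4B4 library, with 28 of 77 above 0, and -0.03 in the control library, with 31 of 77 above 0. RPS20, whose locus hosts a snoRNA, was the one at least 1.5-fold higher, in the 4B4 library, where TMM turns its direction round. All ribosomal protein genes together averaged 11987 UMIs per MALAT1-rich and 25074 per MALAT1-low cell of the 4B4 library, and 6046 per MALAT1-rich and 9326 per MALAT1-low cell of the control library. Mean totals were 71192 UMIs per MALAT1-rich and 97727 per MALAT1-low cell of the 4B4 library, and 33190 per MALAT1-rich and 37278 per MALAT1-low cell of the control library.

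The 39 very long genes gave 237 UMIs per MALAT1-rich and 51.0 per MALAT1-low cell of the 4B4 library, and 99.7 per MALAT1-rich and 29.95 per MALAT1-low cell of the control library. In molecules per cell too, then, the long genes were higher and the ribosomal protein genes lower in MALAT1-rich cells of each library. Of 34 nuclear-encoded respiratory chain genes, 25 were lower in the 4B4 library and 9 in the control library. Over all tested genes 15.5% (4B4 library) and 8.67% (control library) were. None of the 34 was higher. By span their medians were -0.19 in the 4B4 library and -0.12 in the control library. CYC1, cytochrome c1, had 117 UPM in MALAT1-rich and 281 UPM in MALAT1-low cells of the 4B4 library, and 116 UPM in MALAT1-rich and 232 UPM in MALAT1-low cells of the control library. Of 11 glycolytic genes, 5 were lower in the 4B4 library and 4 in the control library, and GAPDH had 2284 UPM in MALAT1-rich and 5978 UPM in MALAT1-low cells of the 4B4 library, and 2481 UPM in MALAT1-rich and 5023 UPM in MALAT1-low cells of the control library.

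Mitochondrially encoded genes did not go with the nuclear-encoded subunits of the same complexes. Of 13, 11 were at least 1.5-fold higher in MALAT1-rich cells of the 4B4 library and 8 in the control library, and none was lower. Over all tested genes 47.2% (4B4 library) and 41.6% (control library) were that far higher. The sum of the 13 is capped by the rule in both classes, so the count is a description of what the cap left. In the 4B4 library this sum was 72819 UPM in MALAT1-rich and 42361 UPM in MALAT1-low cells. The medians over single cells lay closer, at 73167 UPM in MALAT1-rich and 61699 UPM in MALAT1-low cells. In the control library the sums were 82145 and 68422 UPM, and the medians 84647 and 77608 UPM. MT-ND6, encoded on the opposite strand to the other mitochondrial protein genes, had 154 UPM in MALAT1-rich and 24.8 UPM in MALAT1-low cells of the 4B4 library, and 212 UPM in MALAT1-rich and 60.4 UPM in MALAT1-low cells of the control library. MT-CO1, a subunit of cytochrome c oxidase, had log2 ratios of 0.43 in the 4B4 library and 0.04 in the control library, which TMM turns negative in both libraries. MALAT1-low cells of the 4B4 library included cells with next to no mitochondrial RNA. The 10% of them with the lowest mitochondrial share had at most 0.190% of UMIs, against 3.38% in the control library.

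**Figure D4:**
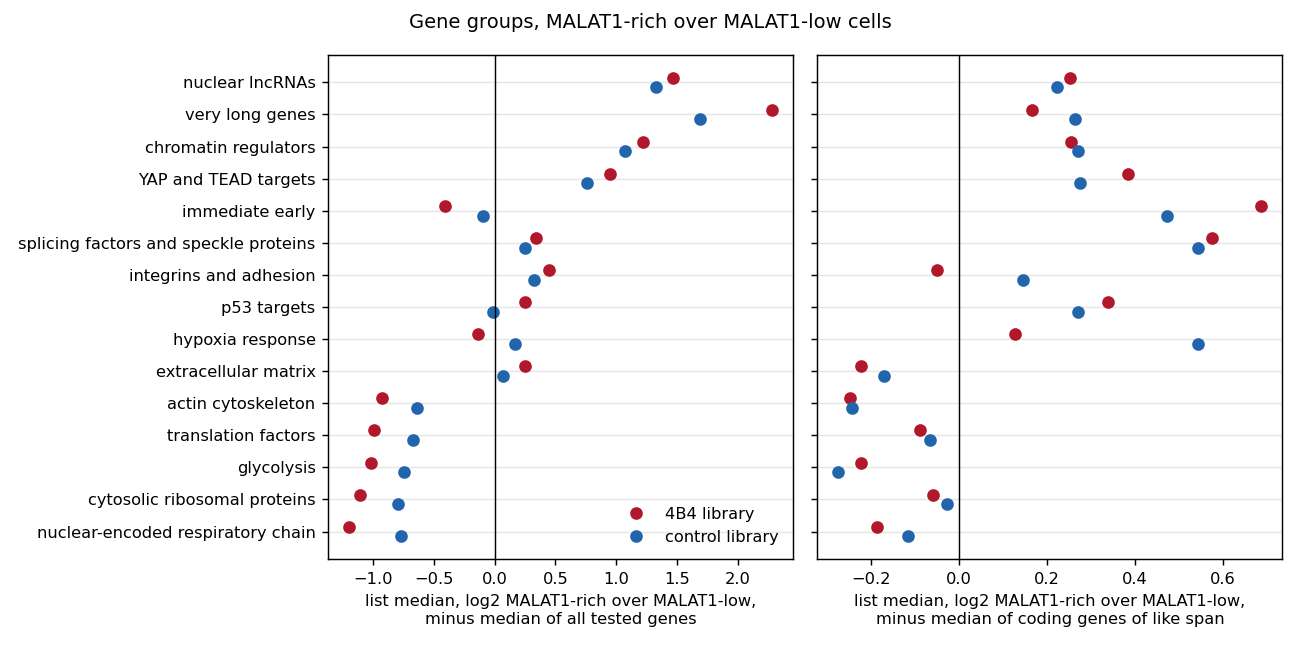
Median log2 ratio of MALAT1-rich over MALAT1-low cells for 15 gene lists, after subtracting the median of all tested genes (left) or, gene by gene, the median of protein-coding genes of like span (right); red points are the 4B4 library and blue points the control library. Nuclear and very long genes lie at the right of the left panel and metabolic and ribosomal genes at its left, while in the right panel the highest 4B4 points are immediate early genes and splicing factors (0.69 and 0.58) and the highest control points hypoxia genes and splicing factors (both 0.54).

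Integrins and adhesion genes, the machinery that 4B4 acts on, held no gene called lower. Of 20 tested integrin and adhesion genes, 14 were at least 1.5-fold higher in MALAT1-rich cells of the 4B4 library and 11 in the control library, somewhat above the 47.2% (4B4 library) and 41.6% (control library) of all tested genes. ITGB1, the β1 integrin that 4B4 binds, had 1031 UPM in MALAT1-rich and 553 UPM in MALAT1-low cells of the 4B4 library, and 765 UPM in MALAT1-rich and 467 UPM in MALAT1-low cells of the control library. ITGA10, a collagen-binding α subunit, had 76.2 UPM in MALAT1-rich and 21.1 UPM in MALAT1-low cells of the 4B4 library, and 70.7 UPM in MALAT1-rich and 22.9 UPM in MALAT1-low cells of the control library. PTK2, focal adhesion kinase, had 432 UPM in MALAT1-rich and 69.2 UPM in MALAT1-low cells of the 4B4 library, and 287 UPM in MALAT1-rich and 76.2 UPM in MALAT1-low cells of the control library. The medians of the list stood 0.45 (4B4 library) and 0.33 (control library) above that of all genes, but by span the group was level, at -0.05 in the 4B4 library and 0.15 in the control library.

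Targets of YAP and TEAD, transcription factors that respond to adhesion and tension, had 13 of 14 higher in the 4B4 library and 8 of 15 in the control library, the second not far above the share of all genes. Of those at the floor in both sums, 9 of 10 in the 4B4 library and 7 of 14 in the control library were higher. Among all genes at the floor in both sums, 30.02% (4B4 library) and 28.1% (control library) were. The list medians stood 0.95 (4B4 library) and 0.76 (control library) above that of all genes. By span they were 0.38 in the 4B4 library, with 10 of 14 above 0. In the control library the median by span was 0.28, with 9 of 15 above 0. TEAD1 itself had 215 UPM in MALAT1-rich and 48.4 UPM in MALAT1-low cells of the 4B4 library, and 218 UPM in MALAT1-rich and 68.6 UPM in MALAT1-low cells of the control library. Of actin cytoskeleton genes, 5 of 26 were higher and 9 lower in the 4B4 library, and 2 of 27 higher and 7 lower in the control library. The shares of all tested genes were 47.2% higher and 15.5% lower (4B4 library), and 41.6% higher and 8.67% lower (control library). PFN1, profilin, was among the lower actin genes, at log2 ratios of -1.36 in the 4B4 library and -1.12 in the control library. Extracellular matrix genes had 8 of 15 higher in the 4B4 library and 6 of 15 in the control library, close to the share of all genes, and 1 lower (BGN, in the 4B4 library). Their median turns negative under TMM in both libraries. FN1, fibronectin, was among those higher, at log2 ratios of 0.74 in the 4B4 library and 0.93 in the control library, and TMM takes it to -0.03 in the 4B4 library and 0.41 in the control library.

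Stress and signalling groups lay at varied distances from the median of all genes. Relative to it, the median of immediate early genes was -0.41 (4B4 library) and -0.09 (control library). That of p53 targets was 0.25 (4B4 library) and -0.01 (control library). Immediate early genes, which code for short-lived messenger RNAs, had 5 of 16 higher and 1 lower in the 4B4 library and 6 of 16 higher in the control library, shares below those of all genes. FOSB, a member of the AP-1 family, had 113 UPM in MALAT1-rich and 37.2 UPM in MALAT1-low cells of the 4B4 library, and 135 UPM in MALAT1-rich and 52.8 UPM in MALAT1-low cells of the control library. Against protein-coding genes of like span, 15 of 16 immediate early genes in the 4B4 library and 16 of 16 in the control library were above 0, with medians of 0.69 in the 4B4 library and 0.47 in the control library. p53 targets had 8 of 14 higher and 1 lower in the 4B4 library, and 6 of 14 higher in the control library, near the shares of all genes. MDM2, which inhibits p53, had 117 UPM in MALAT1-rich and 40.7 UPM in MALAT1-low cells of the 4B4 library, and 232 UPM in MALAT1-rich and 84.5 UPM in MALAT1-low cells of the control library. The list medians of immediate early genes and p53 targets turn negative under TMM in both libraries.

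Genes of the hypoxia response had 3 of 9 higher in the 4B4 library and 4 of 9 in the control library, below the share of all genes in the 4B4 library and near it in the control library, and TMM turns their median negative in both. KDM3A, a histone demethylase, had 31.8 UPM in MALAT1-rich and 10.5 UPM in MALAT1-low cells of the 4B4 library, and 25.7 UPM in MALAT1-rich and 8.82 UPM in MALAT1-low cells of the control library. VEGFA, the angiogenic growth factor, had log2 ratios of 0.71 in the 4B4 library and 0.86 in the control library, and TMM takes that of the 4B4 library to -0.06. Of proteases and inhibitors, 6 of 20 were higher in each library, below the shares of all genes, and CTSD and TIMP1 were lower in the 4B4 library. Endoplasmic reticulum folding, heat shock, NRF2 and iron, lysosome and ATF4 lists had medians under that of all genes in both libraries.

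The lowest genes were mostly short. Among ranked genes the 12 lowest by both libraries' smaller ratio were PCLAF, FXYD5, CDKN3, GEMIN7, UBE2T, ACD, MRPL37, G6PC3, PFN1, SLC25A39, SF3A2 and CENPW. Of these, PCLAF, CDKN3, GEMIN7, UBE2T, ACD and CENPW reached the floor in MALAT1-low cells only, in both libraries. They had to be lower in MALAT1-rich cells to be tested. FXYD5, a small membrane protein that modulates the sodium pump, had 70.0 UPM in MALAT1-rich and 174 UPM in MALAT1-low cells of the 4B4 library, and 83.4 UPM in MALAT1-rich and 221 UPM in MALAT1-low cells of the control library. PCLAF, a PCNA-binding factor of S phase, had 7.93 UPM in MALAT1-rich and 21.9 UPM in MALAT1-low cells of the 4B4 library, and 16.0 UPM in MALAT1-rich and 59.2 UPM in MALAT1-low cells of the control library. Of S phase genes 3 of 12 were higher and 3 lower in the 4B4 library. In the control library 2 of 16 were higher and 9 lower. Of those at the floor in both sums, 0 of 6 were higher and 2 lower in the 4B4 library. In the control library 1 of 10 was higher and 5 lower by that rule. Of G2 and mitosis genes 8 of 15 were higher and 4 lower in the 4B4 library. In the control library 5 of 17 were higher and 6 lower. Their median log2 ratios were 0.66 in the 4B4 library and 0.19 in the control library. Of them, 5 (4B4 library) and 4 (control library) reached the floor in MALAT1-rich cells only. At the floor in both sums, 3 of 10 were higher and 4 lower in the 4B4 library, and 2 of 12 higher and 5 lower in the control library. Over all tested genes 47.2% were higher and 15.5% lower in the 4B4 library, and 41.6% higher and 8.67% lower in the control library. Among all genes at the floor in both sums, 30.02% were higher and 19.5% lower in the 4B4 library. The control library had 28.1% higher and 10.1% lower by that rule. The counts at the floor in both sums are to be read beside these last shares. With cells that had any UMI of TOP2A or MKI67 left out, the log2 ratio of PCLAF was -0.84 in the 4B4 library and -1.31 in the control library, against -1.47 in the 4B4 library and -1.88 in the control library with them.

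Length did not order every gene. Of 2101 protein-coding genes under 20 kb tested in both libraries, 20 were at least 2-fold higher in MALAT1-rich cells of both, and 1635 were below 0 in both. The following were chosen after their values were seen. Among the 20 were MFSD4B, TTC14, ITGA10, CCNL1, FOSB, ARRDC3, GEM, SPRY4, WEE1, PNN and PPP1R10, several of them known as quickly induced genes or regulators of splicing. PNN, pinin, a speckle protein, spans 8.04 kb and had 241 UPM in MALAT1-rich and 70.3 UPM in MALAT1-low cells of the 4B4 library, and 242 UPM in MALAT1-rich and 118 UPM in MALAT1-low cells of the control library. Of 1710 protein-coding genes of 100 kb or more, 1189 were at least 2-fold higher and 63 were below 0 in both. LDHB, lactate dehydrogenase B, with an annotated span of 123 kb, had 601 UPM in MALAT1-rich and 983 UPM in MALAT1-low cells of the 4B4 library, and 660 UPM in MALAT1-rich and 1018 UPM in MALAT1-low cells of the control library. PGK1, a glycolytic enzyme, and EIF3H, a translation factor subunit, were below 0 as well.

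Between the libraries, MALAT1-rich cells of 4B4 and control differed in few genes. Of 7228 genes, 33 (0.457%) stood 2-fold or more higher in 4B4 than in control MALAT1-rich cells, and 27 (0.374%) 2-fold or more lower. In MALAT1-low cells 24 of 5611 (0.428%) were past 2-fold on the higher side in 4B4 and 120 (2.14%) on the lower side. MALAT1 itself had a log2 ratio of 4B4 over control of 0.09 in MALAT1-rich and -0.48 in MALAT1-low cells. With each cell weighing the same, 130 genes were at least 2-fold higher in 4B4 MALAT1-rich cells, and 34 when cells under 10000 UMIs were also left out.

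Among ranked genes the 10 highest in 4B4 MALAT1-rich cells were mixed in span and role. HMOX1, heme oxygenase 1, had 108 UPM in 4B4 and 23.4 UPM in control MALAT1-rich cells, a log2 ratio of 2.21 (2.05 to 2.37). In MALAT1-low cells it had 108 UPM in 4B4 and 30.1 UPM in control, so both classes had it higher in 4B4. UNC13C, a gene for a synaptic vesicle priming protein, had 66.9 UPM in 4B4 and 11.5 UPM in control MALAT1-rich cells, and 7.99 UPM in 4B4 and 3.11 UPM in control MALAT1-low cells. HS6ST3, a heparan sulfate sulfotransferase gene, had 70.3 UPM in 4B4 and 12 UPM in control MALAT1-rich cells, and 4.40 UPM in 4B4 and 4.46 UPM in control MALAT1-low cells. Of its UMIs in 4B4 MALAT1-rich cells, 36.2% lay in 4 cells, and without the highest 1% of cells its log2 ratio was 2.33 against 2.55.

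SPP1, osteopontin, a secreted ligand of integrins, had 132 UPM in 4B4 and 49.6 UPM in control MALAT1-rich cells, and 185 UPM in 4B4 and 63.5 UPM in control MALAT1-low cells. CEMIP, which takes part in hyaluronan breakdown, had 86.1 UPM in 4B4 and 30.4 UPM in control MALAT1-rich cells, and 27.4 UPM in 4B4 and 15.3 UPM in control MALAT1-low cells. LINC01433, PMEPA1, CASC15, SLC29A1 and KCTD16 completed the 10 highest, at log2 ratios from 1.39 to 2.08. FN1 had 1514 UPM in 4B4 and 1005 UPM in control MALAT1-rich cells, TIMP1, an inhibitor of metalloproteinases, 3307 UPM in 4B4 and 1889 UPM in control, and ITGB1 1031 UPM in 4B4 and 765 UPM in control. The antibody blocks the protein, so the ITGB1 transcript is no check of the label. The ratios of FN1, TIMP1 and ITGB1 were under 2-fold.

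Among ranked genes the lowest in 4B4 MALAT1-rich cells were PTX3, CPA4, MT1E, TYMS, BMP4, FAM167B, CSMD3, SERINC2, TENM2 and PRICKLE1. Their log2 ratios ran from -1.73 to -1.23. PTX3, a secreted pentraxin of innate immunity, had 8.44 UPM in 4B4 and 28.1 UPM in control MALAT1-rich cells, and 15.2 UPM in 4B4 and 35.4 UPM in control MALAT1-low cells. Of its UMIs in 4B4 MALAT1-low cells, 57.8% lay in 5 cells. Without the highest 1% of cells its log2 ratio in MALAT1-low cells was -2.29 against -1.22. TENM2, a teneurin adhesion protein gene, had 51.2 UPM in 4B4 and 122 UPM in control MALAT1-rich cells, and 8.01 UPM in 4B4 and 54.3 UPM in control MALAT1-low cells. MT1E is one of several near-identical metallothionein genes, so its count is uncertain. SAA1, an acute phase protein, was under the 20 UPM floor in MALAT1-rich cells, at 3.48 UPM in 4B4 and 18.8 UPM in control. Of these SAA1 UMIs, 57.8% lay in 4 cells in 4B4 and 48.7% in 5 cells in control. Without those cells the levels were 1.49 UPM in 4B4 and 9.76 UPM in control. The 10 lowest genes were all lower in 4B4 MALAT1-low cells as well.

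**Figure D5:**
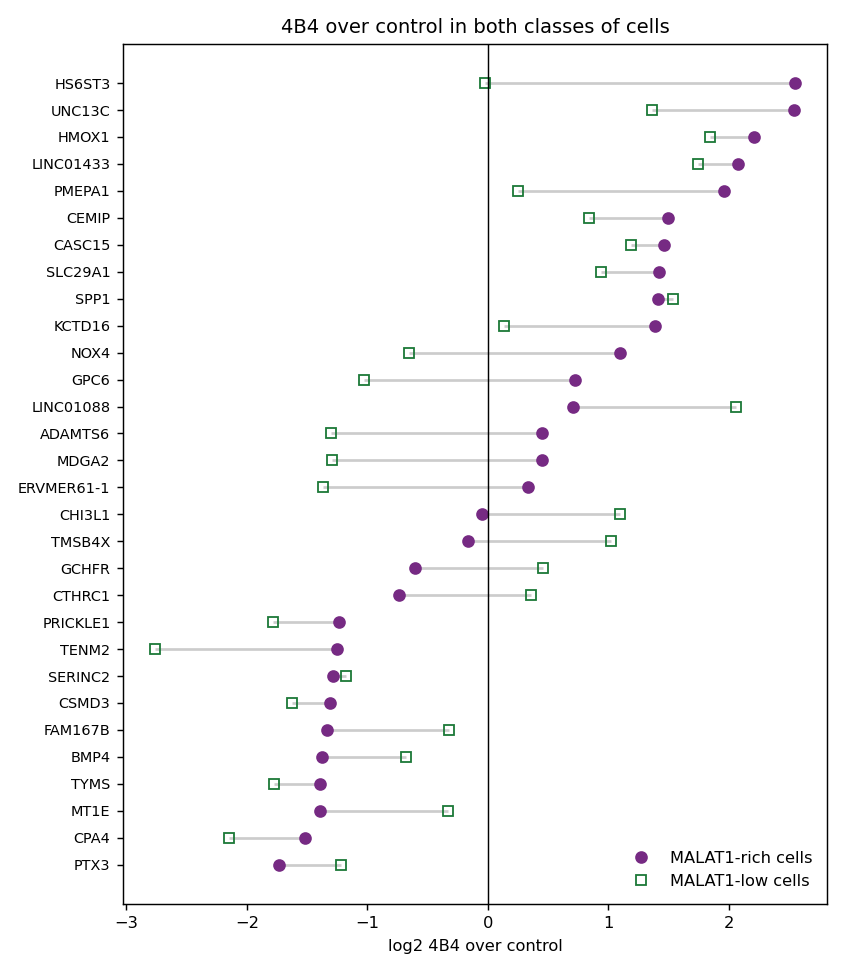
Log2 ratio of 4B4 over control in MALAT1-rich cells (filled circles) and in MALAT1-low cells (open squares) for the genes named by the rule for these 2 comparisons, 1 library per group. HS6ST3, NOX4, GPC6, ADAMTS6, MDGA2 and ERVMER61-1 have widely parted symbols, while HMOX1, SPP1 and SERINC2 have theirs close together.

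By gene group, the targets of YAP and TEAD were lower in 4B4. In MALAT1-rich cells 7 of 15 were at least 1.5-fold lower in 4B4 than in control, where 1.62% of all tested genes were, and none was higher, where 2.34% were. The list median was -0.49, beside 0.08 for all genes. CCN1, a matricellular protein, had 84.4 UPM in 4B4 and 148 UPM in control, and AMOTL2, a scaffold of junctions, 18.5 UPM in 4B4 and 40.3 UPM in control. In MALAT1-low cells 10 of 14 were at least 1.5-fold lower (6.1% of all genes) and 0 were at least 1.5-fold higher (2.25%). Their median was -1.05. In MALAT1-rich cells 5 of 28 very long genes were higher and 2 lower, and of 444 genes of 300 kb or more 31 were higher and 22 lower. Of p53 targets 3 of 14 were lower (PLK2, DDB2 and MDM2), of NRF2 and iron genes 3 of 12 higher (GCLM, SLC7A11 and HMOX1), and of extracellular matrix genes 4 of 15 higher (FN1, SPP1, COL4A1 and THBS1) and 2 lower (TGFBI and COL13A1). No chromatin, splicing, nuclear envelope, ribosomal, respiratory chain or glycolytic gene was past 1.5-fold in either direction.

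The distance between MALAT1-rich and MALAT1-low cells was wider in the 4B4 library. The log2 ratio of 4B4 over control was 1 or more higher in MALAT1-rich than in MALAT1-low cells for 145 of 7024 genes (2.06%), and 1 or more lower for 8 (0.114%). For genes of 300 kb or more the median difference was 0.62, above 0 for 390 of 408, beside 0.12 for all genes tested. NOX4, an NADPH oxidase, had 83.4 UPM in MALAT1-rich and 9.47 UPM in MALAT1-low cells of the 4B4 library, and 39.0 UPM in MALAT1-rich and 14.9 UPM in MALAT1-low cells of the control library. GPC6, a glypican, had 120 UPM in MALAT1-rich and 12.5 UPM in MALAT1-low cells of the 4B4 library, and 73.0 UPM in MALAT1-rich and 25.6 UPM in MALAT1-low cells of the control library. TMSB4X, the actin-binding thymosin β4, went the other way, with 97.1 UPM in MALAT1-rich and 184 UPM in MALAT1-low cells of the 4B4 library, and 109 UPM in MALAT1-rich and 90.5 UPM in MALAT1-low cells of the control library. The median MALAT1 level of MALAT1-low cells was 450 UPM in the 4B4 library and 883 UPM in the control library, so the classes compared are not equally far apart. Under TMM the 145 became 35.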

How the data were processed

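The deposited files are matrices of UMI counts per gene and cell barcode from 2 libraries, with Cell Ranger 7.1.0 named by their headers. GRCh38 and Seurat 5.0.1 are named in the submitters' processing notes. For gene annotation, introns and strand, the settings were not given in any source used here. The members, the gene lists and the comparisons were chosen with earlier results of these data known.

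UMIs were summed over the cells of each class and library and divided by their total. Ratios have 95% counting intervals, which cover counting error only, as do shares with Clopper-Pearson intervals. A gene was tested at 20 UPM or more in either sum. It was called at 2-fold, and within a list at 1.5-fold with its interval on the same side. Named genes were the 12 highest and lowest by the smaller ratio of both libraries, and 10 each way between libraries. Named too were 6 each way in the difference and up to 4 per list. Genes left out of the rankings are given above with the highest genes. Those ranked between libraries also had the same sign under every alternative. Spans come from GENCODE release 29 (94.58% of 36601 gene IDs matched). Doublets were sought with Scrublet in scanpy 1.11.5, which marked 4 barcodes in the 4B4 library and 0 in the control library, too few to be usable. Free RNA was not removed. Analyses used Python 3.11.15 with numpy 2.4.6, scipy 1.17.1 and pandas 2.3.3. TMM came from edgeR 4.0.16 in R 4.3.3. The alternatives are given in the closing section.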

Additional observations from a re-analysis of the deposited data

Results flagged for a closer look

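For 3 of the genes named by the rule, a ratio was at least 1.5-fold in opposite directions in the 2 classes or the 2 libraries. Others differed in sign with a smaller ratio on one side and are not listed here. No difference was tested, since each group is 1 library. GPC6, a glypican, had a log2 ratio of 4B4 over control of 0.72 in MALAT1-rich cells and -1.03 in MALAT1-low cells. NOX4, an NADPH oxidase, had 1.09 in MALAT1-rich and -0.65 in MALAT1-low cells. PMEPA1, an inhibitor of TGF-β signalling, had a log2 ratio of MALAT1-rich over MALAT1-low cells of 0.66 in the 4B4 library and -1.05 in the control library. The value of PMEPA1 in the 4B4 library turned negative under TMM and among cells of 20000 to 60000 UMIs.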

How the results depend on the processing

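No paired analysis was possible because each group has 1 library, and for the same reason no library could be left out. Of 327 ratios of named genes, 233 stayed at least 1.5-fold in the same direction under every alternative. The cause of the changes below was not tested. In the 4B4 library the 2595 genes 2-fold higher in MALAT1-rich cells became 1077 under TMM, 1304 with a floor of 50 UPM and 10713 with no floor beyond 3 UMIs. The 112 lower genes became 2379 under TMM, 60 with MALAT1 and mitochondrial genes left out of the total, 59 in cells of 20000 to 60000 UMIs, 207 with MALAT1 bounds of 20000 and 5000, and 1181 with no floor. They became 73 with each cell weighing the same and at least 10000 UMIs, an alternative chosen after seeing the data. In the control library the 1934 higher genes became 778 under TMM, 940 with the higher floor and 7879 with none. The 46 lower genes became 1092 under TMM, 81 with the other bounds, 25 with up to 20% mitochondrial UMIs, 25 with the higher floor and 1051 with none. Between the libraries, the 33 higher genes in MALAT1-rich cells became 130 with each cell weighing the same, 11 with the higher floor and 1954 with none. The 27 lower genes became 43 in cells of 20000 to 60000 UMIs, 13 with the higher floor and 1575 with none. The 145 genes with a library ratio 1 or more higher in MALAT1-rich cells became 233 with each cell weighing the same, 35 under TMM and 92 without any TOP2A or MKI67 UMI. The 8 on the other side became 20 under TMM and 3 with up to 20% mitochondrial UMIs. The share of MALAT1-rich cells became 31.5% in the 4B4 library and 27.9% in the control library with the other bounds, and 40.5% in the control library without any TOP2A or MKI67 UMI. TMM turned 1561 of 7386 genes of the 4B4 library and 1254 of 7120 of the control library from above to below 0 in MALAT1-rich over MALAT1-low cells. Among the 327 followed ratios, all at least 1.5-fold to begin with, those that TMM turned were of the 4B4 library, for PMEPA1 (-0.11), VEGFA (-0.061), CANX (-0.071), HSPH1 (-0.00913), BCL2L13 (-0.12) and FN1 (-0.028). That of PMEPA1 was also -0.11 in cells of 20000 to 60000 UMIs, and that of CKS2 became 0.029 with each cell weighing the same.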
